A study of Mus musculus with 18 samples.

Results

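Kdr and Tie1, the receptor tyrosine kinases of vessel lining cells, were followed through 9 mouse ovaries. Members were all probe sets that the platform annotation assigns to either gene. They are 2 genes of the 6137 that the annotation names by 1 symbol. Each had 1 probe set, 2 of 13179 on both chip types together, and both lay on the same chip type, called chip B here. Both passed the filter on low values, which 6408 probe sets passed in all.

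The ovaries came from wild-type mice and from transgenic mice, labelled LHCTP, that oversecrete luteinizing hormone (LH). CF-1 animals gave a wild-type and a cystic transgenic ovary at 2 months, and a wild-type ovary and a transgenic granulosa cell tumour at 5 months. A further CF-1 transgenic ovary at 5 months, treated with human chorionic gonadotropin (hCG), an agonist of the LH receptor, is labelled a luteoma. Hybrids of CF-1 and C57BL/6 gave a wild-type and a cystic ovary at 2 months, and a wild-type ovary and a luteoma at 5 months. Each of these 9 conditions, called an ovary below, had 1 array of each of 2 chip types, 18 arrays in all, so that none was repeated. The promoter that drives the transgene, and whether animals were pooled, are not given in the sources used here. Both receptors were read on the tumour's chip B array, whose description gives 2 months of age, while title and source give 5 months and were followed. The p-values below rest on the spread among unlike ovaries, since no condition had a second sample.

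Kdr encodes vascular endothelial growth factor (VEGF) receptor 2, the main receptor through which VEGF-A makes endothelial cells divide, migrate and become permeable. Tie1 is a receptor without a high-affinity ligand of its own that pairs with Tek (Tie2), the receptor of the angiopoietins, and modulates vessel stability. In the ovary, capillaries grow into the ruptured follicle and form the dense network of the corpus luteum, which makes both receptors usual markers of luteal vessels. In whole tissue, fewer cells of a type and less RNA per cell cannot be told apart, so a level here is not a vessel count.

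The Kdr probe set x59397_s_at carries the accession-derived name of a Kdr mRNA. In mouse assembly GRCm38.p6 the RefSeq gene lies on the minus strand at chr5:75932827-75979072. The Tie1 probe set x73960_s_at matches the gene at chr4:118471191-118489849, also on the minus strand. Both probe set names end in _s_at, a suffix for sets whose probes can match more than 1 transcript. The 250 bases before the RefSeq start of Tie1 (GRCm38.p6, chr4:118489850-118490099, minus strand, written 5′ to 3′) are shown because ETS family factors are known regulators of endothelial receptor genes. Capitals mark GGAA, the core of their motif, and its reverse complement TTCC.
Tie1: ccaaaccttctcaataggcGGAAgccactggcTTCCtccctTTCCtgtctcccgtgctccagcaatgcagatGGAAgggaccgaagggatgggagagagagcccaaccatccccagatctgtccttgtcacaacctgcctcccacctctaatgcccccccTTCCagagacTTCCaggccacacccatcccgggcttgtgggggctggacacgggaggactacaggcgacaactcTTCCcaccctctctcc
This window held 7 matches, and 3.82% of 32851 RefSeq windows of the same length held as many or more. The Kdr window (chr5:75978456-75978705) held 4, and 33.4% of windows held as many or more. At least 1 match stood in 93.4% of windows, so these letters alone set neither gene apart. GATA or its reverse complement, which cannot overlap GGAA or TTCC, occurred once in the Kdr window and was not found in the Tie1 window, against 53.6% of all windows. The Kdr window falls inside the annotated span of the gene, from which a longer transcript starts further out, and its bases are not shown.

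Levels are scaled intensities of chip B, after each array was brought to the same trimmed mean. The detection limit was 581.4 units, 2 times the floor of 290.7 units to which lower values were raised before log2. Trimmed means before scaling were 541.9 to 921.0 units (chip B) and 907.0 to 1755.8 (chip A). On 10 probe sets carried by both chip types, the chip A minus chip B difference in log2 intensity varied over the ovaries with a median SD of 0.27 (0.07 to 0.41). Genes that were not members were read beside the labels, and the 2 given here set the tumour apart from the other ovaries. Star, the cholesterol carrier that limits steroid synthesis, read 188 units in the tumour, near the chip A floor of 183.8. It read 11263 or more in the other 8 ovaries. Hsd17b1, a granulosa cell enzyme of estradiol synthesis, read 16047 in the tumour and at most 5765 elsewhere. Of 11 tested granulosa cell genes, 7 were highest in the tumour and 2, Amh (415 units) and Wt1 (1220), were lowest there. Of all tested probe sets, 21.0% were highest and 19.1% lowest in the tumour. Among defining endothelial markers, Pecam1 reached its chip A detection limit of 367.6 units in 1 ovary, the hybrid luteoma (437.0), and Nos3, Sox18, Fli1 and Ptprb stayed under the floor in all 9.

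3 of the ovaries shared a feature of their arrays. A control probe set for the opposite strand of the bacterial gene bioD gave 768.0 units or more (chip A) and 531.3 or more (chip B) in the CF-1 wild type at 5 months, the tumour and the hybrid luteoma. In the other 6 it gave at most 386.8 and 330.0. The CF-1 wild type at 5 months also correlated best with the hybrid luteoma of all ovaries, on chip A (r = 0.940) and on chip B (r = 0.923). These 3 ovaries are called the shared-profile arrays, and results that cross this line are given with that fact.

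Kdr was highest in the hybrid luteoma and stood above the detection limit in all 9 ovaries. In CF-1 mice its level was 1070 units in the wild type at 2 months, 1466 in the cystic ovary, 1990 in the wild type at 5 months, 933 in the tumour and 1300 in the hCG luteoma. In hybrids it was 1168 in the wild type at 2 months, 1606 in the cystic ovary, 922 in the wild type at 5 months and 3357 in the luteoma. The second highest value was thus a wild-type ovary, and the 4 wild types (1287 ± 479, SD) spanned a 2.16-fold range that held both cystic ovaries (1536 ± 99.1, SD, n = 2). The 2 luteomas lay 2.58-fold apart. In order from low to high, the hybrid wild type at 5 months, the tumour, the CF-1 and hybrid wild types at 2 months, the hCG luteoma, the CF-1 and hybrid cystic ovaries and the CF-1 wild type at 5 months were each separated by less than the residual SD within classes (0.57 in log2). Only the step from there to the hybrid luteoma, 0.75, was larger than that SD. A difference of 2 single values spreads more widely than each value, so this step does not set the hybrid luteoma apart.

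Tie1 was also highest in the hybrid luteoma, and its 2 lowest values were the hybrid wild types. In CF-1 mice it read 1169 units in the wild type at 2 months, 1533 in the cystic ovary, 1619 in the wild type at 5 months, 1150 in the tumour and 822 in the hCG luteoma. In hybrids it read 336 in the wild type at 2 months, 1239 in the cystic ovary, 483 in the wild type at 5 months and 2547 in the luteoma. Both hybrid wild types lay under the detection limit, at 0.579 and 0.831 of it, and above the floor. The wild types (902 ± 600, SD, n = 4) spanned a 4.81-fold range that contained the cystic ovaries (1386 ± 208, SD, n = 2), the tumour and the hCG luteoma. The residual SD within classes was 0.98 in log2, and no step between neighbours exceeded it. The largest step, 0.77, lay between the hybrid wild type at 5 months and the hCG luteoma.

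**Figure D1:**
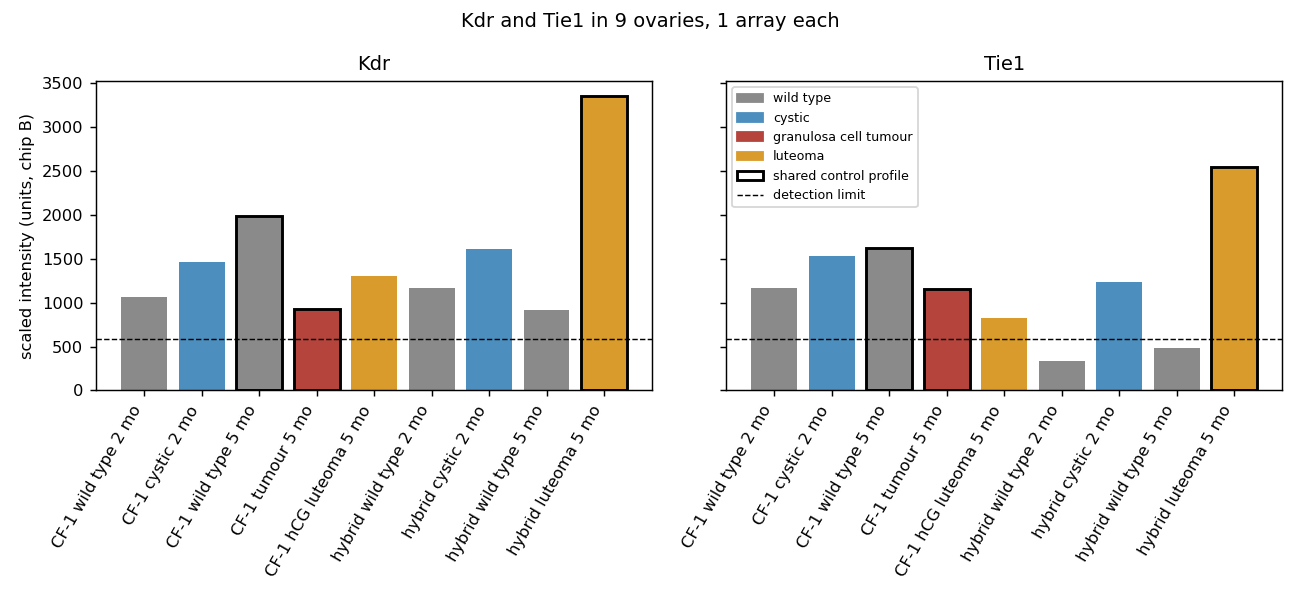
Scaled intensity of the Kdr and Tie1 probe sets (vertical axis, units) in each of 9 ovaries, 1 array each and no error bar; colours give the class, black outlines the 3 shared-profile arrays, and the dashed line the detection limit of 581.4 units. The hybrid luteoma is the highest bar for both genes (3357 and 2547 units), the CF-1 wild type at 5 months comes next (1990 and 1619), and Tie1 lies under the limit in the hybrid wild types.

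The cystic ovaries at 2 months had more of both receptors than the wild type of their strain, by amounts below 2-fold in 3 of 4 cases. Kdr was 1.37-fold higher in CF-1 and 1.37-fold higher in the hybrid. Tie1 was 1.31-fold higher in CF-1 and 3.68-fold higher in the hybrid, where the wild-type value was under the detection limit. With a floor 2 times as high, the hybrid Tie1 difference fell from 1.88 to 1.09 in log2. In CF-1, 2.95% of all tested probe sets were higher by 2-fold or more and 2.79% lower by as much in the cystic ovary. In the hybrid the shares were 4.35% and 4.43%. A larger increase than that of Tie1 in the hybrid was seen for 0.655% of tested probe sets. These 4 arrays lie on the same side of the control profile.

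In the granulosa cell tumour both receptors read below the CF-1 wild type of the same age. Kdr was 2.13-fold lower and Tie1 1.41-fold lower. Of all tested probe sets, 7.1% were lower by 2-fold or more and 5.04% higher by as much in that pair. Against the other 3 wild types, its Kdr level of 933 lay above the hybrid at 5 months (922) and below the CF-1 and hybrid ovaries at 2 months (1070 and 1168). Its Tie1 level of 1150 lay above both hybrid wild types (336 and 483) and below the CF-1 wild type at 2 months (1169). Both arrays of this pair carry the shared profile.

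The luteomas went opposite ways. In the hybrid luteoma Kdr was 3.64-fold and Tie1 5.27-fold higher than in the hybrid wild type at 5 months. In that pair 6.57% of tested probe sets were higher by 2-fold or more and 8.27% lower. A larger increase was seen for 1.19% of tested probe sets in the case of Kdr and for 0.640% in that of Tie1. In the hCG luteoma Kdr was 1.53-fold lower and Tie1 1.97-fold lower than in the CF-1 wild type at 5 months. There 7.38% were higher by 2-fold or more and 6.98% lower. Set side by side, the hybrid luteoma exceeded the hCG luteoma 2.58-fold in Kdr and 3.10-fold in Tie1, while 6.65% of tested probe sets were higher by 2-fold or more and 7.63% lower. No pair of arrays has a replicate check.

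All 3 of these luteoma pairs cross the control profile, with the hybrid luteoma or the CF-1 wild type at 5 months on the shared-profile side. Among the shared-profile arrays, the hybrid luteoma exceeded the CF-1 wild type at 5 months 1.69-fold in Kdr and 1.57-fold in Tie1. That is the only wild type among them, and it is of another strain. Among the other 6, the hCG luteoma stood at 1.11 times the highest wild type for Kdr, the hybrid at 2 months. For Tie1 it stood at 0.703 times the highest wild type, CF-1 at 2 months. The part of the profile in the pair differences was not tested.

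Neither receptor passed the threshold in any comparison of classes. The fit (limma, Benjamini-Hochberg adjusted over 6408 probe sets) took the 4 wild types, 2 cystic ovaries, 2 luteomas and 1 tumour as classes, with 5 residual degrees of freedom. No unadjusted p of either receptor was under 0.05. For cystic minus wild type the log2 difference of Kdr was 0.32 ± 0.42 (SE; limma adjusted p = 0.969) and that of Tie1 0.89 ± 0.66 (0.927). For luteoma minus wild type it was 0.76 ± 0.42 for Kdr (limma adjusted p = 0.666) and 0.96 ± 0.66 for Tie1 (0.753). The intervals for the luteoma, -0.18 to 1.71 for Kdr and -0.54 to 2.46 for Tie1, still admit more than a 2-fold increase. In the tumour Kdr differed by -0.40 ± 0.54 (limma adjusted p = 0.728) and Tie1 by 0.63 ± 0.85 (0.731). Over all tested probe sets, 0.0624% passed in the cystic class, 0.109% in the luteoma class and 1.5% in the tumour.

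The luteoma differences of both receptors rested on 1 ovary. Without the hybrid luteoma, Kdr differed from wild type by 0.08 and Tie1 by 0.14 in log2. Without the hCG luteoma, they differed by 1.45 and 1.77, and without the CF-1 wild type at 5 months by 0.995 and 1.33, all short of the threshold. Without the hybrid wild type at 2 months, Tie1 differed by 0.58. For luteoma minus cystic, the difference was 0.45 ± 0.48 for Kdr (limma adjusted p = 0.835) and 0.07 ± 0.76 for Tie1 (0.995). It turned to -0.24 and -0.75 without the hybrid luteoma. In that comparison 0% of tested probe sets passed limma's adjusted threshold, 526 had an unadjusted p under 0.05, and limma with a trended, robust prior called 2.

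A term for the shared profile was added after the data were seen. It lowered the luteoma minus wild type difference to 0.49 ± 0.20 (SE) for Kdr and 0.57 ± 0.46 for Tie1. It raised the cystic minus wild type difference to 0.59 ± 0.20 for Kdr and 1.28 ± 0.46 for Tie1. The unadjusted limma p was 0.0392 for Kdr in the luteomas, and 0.0176 for Kdr and 0.0271 for Tie1 in the cystic ovaries. None of these passed (limma adjusted p = 0.434, 0.396 and 0.447). With that term the tumour difference became -1.23 for Kdr (limma adjusted p = 0.111) and -0.53 for Tie1 (0.841), which is the opposite sign for Tie1.

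Across the 8 untreated ovaries, the transgene went with more Tie1 in 3 of 4 pairs and more Kdr in 3 of 4, the CF-1 tumour pair being the exception for each. With strain and age as terms (4 residual degrees of freedom), the genotype difference was 1.04 ± 0.46 for Tie1 (limma adjusted p = 0.516) and 0.42 ± 0.41 for Kdr (limma adjusted p = 0.803). Of all tested probe sets 0% passed limma's adjusted threshold for genotype, 642 had an unadjusted p under 0.05, and limma with a trended, robust prior called 8. With the profile term the differences were 0.80 and 0.09.

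**Figure D2:**
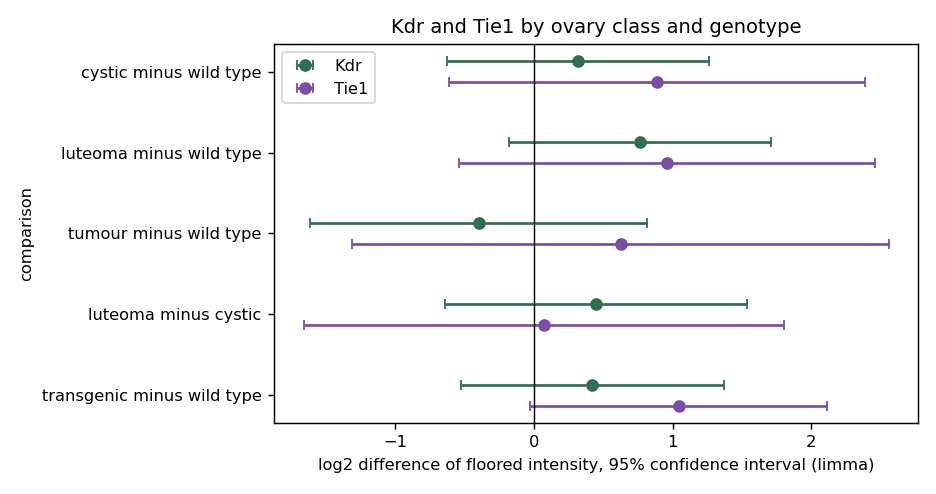
Log2 differences of Kdr and Tie1 (horizontal axis) between ovary classes and between genotypes, with limma's 95% confidence intervals as bars. Every interval includes 0; the one nearest to excluding it is Tie1 for transgenic minus wild type, -0.03 to 2.12.

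Kdr and Tie1 varied alike over the ovaries, though mainly through the extremes. Pearson's r of log2 intensity was 0.704 (exact permutation p = 0.0356, two-sided, n = 9) and Spearman's rho 0.800 (exact permutation p = 0.0138). Without the 2 ovaries farthest from the median of Kdr, the hybrid luteoma and the CF-1 wild type at 5 months, r was 0.400 over 7 ovaries. Both ovaries left out are shared-profile arrays. Over the 6 arrays without the profile, r was 0.606 (exact permutation p = 0.214) and rho 0.657 (exact permutation p = 0.175). No other pair was given a permutation test. Each receptor had a higher r with other chip B probe sets, named further below. It was 0.832 to 0.894 for the 8 likest to Kdr and 0.789 to 0.898 for the 8 likest to Tie1. Both probe sets were read on the same array of each ovary. The receptors parted in the hybrid wild type at 2 months, where Tie1 was at its lowest while Kdr (1168 units) exceeded the CF-1 wild type of that age.

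**Figure D3:**
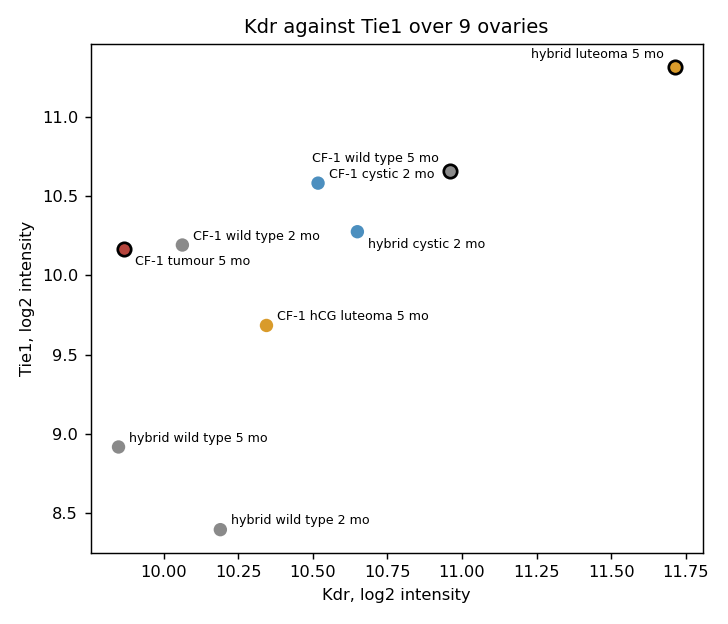
Tie1 against Kdr, both as log2 scaled intensity, 1 point per ovary, coloured as wild type (grey), cystic (blue), tumour (red) and luteoma (orange), with black outlines for the shared-profile arrays. The hybrid luteoma lies at the upper right (11.71 and 11.31), and the hybrid wild types lie lowest in Tie1 (8.39 and 8.92).

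The ligands and co-receptors of both pathways were read from a list of 17 VEGF and angiopoietin genes. Of these 14 were measured and 7 passed the filter, namely Kdr, Tie1 and 5 others. The ligands come first. Vegfa, the main ligand of Kdr, was highest in the hybrid cystic ovary (1309 units, 2.01-fold over its wild type), and lay at 970 in the hybrid luteoma and between 526 and 953 in the other 7. It was 1.76-fold lower in the CF-1 cystic ovary than in its wild type, so the strains differed in sign. Vegfb, a ligand of the related receptor Flt1, ranged from 1372 in the hCG luteoma to 2366 in the tumour.

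Angpt2, the angiopoietin that loosens vessels and opposes Tek signalling in many settings, rose in the tumour. Its level was 7366 units there, against 2303 and 2013 in the CF-1 and hybrid cystic ovaries, 1472 in the hybrid luteoma, 892 in the hCG luteoma and 581 to 1162 in the wild types. The tumour stood above all other ovaries, as it did for 21.0% of all tested probe sets. Both cystic ovaries lay above all wild types, an order whose share over all probe sets was not computed. The tumour minus wild type difference was 3.12 ± 0.41 (SE; limma adjusted p = 0.0106), and a second Angpt2 probe set gave 2.61 ± 0.38 (limma adjusted p = 0.0142). The call was lost with strain and age terms (3.10, limma adjusted p = 0.0806; 0.0026 to 0.0806 over 16 alternatives). Within the shared-profile arrays the tumour exceeded the CF-1 wild type 6.34-fold. The cystic difference, 1.35 ± 0.32, did not pass (limma adjusted p = 0.513). The second Angpt2 probe set read 781 units in the hybrid luteoma, 1036 in the hCG luteoma and 415 to 802 in the wild types. The 2 probe sets thus put the luteomas in opposite order. Thus the tumour combined the highest Angpt2 of the 9 ovaries with Kdr and Tie1 levels inside the wild-type range.

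Of the receptors, Tek, the signalling partner of Tie1, had its highest level in the hybrid luteoma (985 units) and lay between 476 and 679 in the other 8. The hybrid luteoma exceeded its wild type 1.85-fold in Tek. Its luteoma minus wild type difference was 0.39 ± 0.29 (limma adjusted p = 0.771). Nrp1, a co-receptor that strengthens VEGF-A binding to Kdr, ran from 1103 units in the hybrid luteoma to 1757 in the CF-1 wild type at 5 months, so it was lowest where Kdr was highest. Flt1, the decoy-like VEGF receptor, reached the detection limit in 1 ovary, the hybrid cystic one (395 units). Angpt1, Flt4, Pgf, Ptprb, Vegfc and Vegfd reached it in 0 of 9.

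In counts, 1 of the 5 other tested genes of the list passed for the tumour, upward, and 0 passed for the cystic or luteoma classes (limma; 1 and 0 had an unadjusted p under 0.05). Of all tested probe sets, 0.0624% passed for cystic, 0.109% for luteoma and 1.5% for the tumour. For cystic and luteoma, 382 and 538 of all 6408 had an unadjusted limma p under 0.05. The median differences of the 5 genes were 0.17 for cystic, 0.20 for luteoma and -0.11 for the tumour. Over all tested probe sets the medians were 0.02, -0.02 and 0.00.

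**Figure D4:**
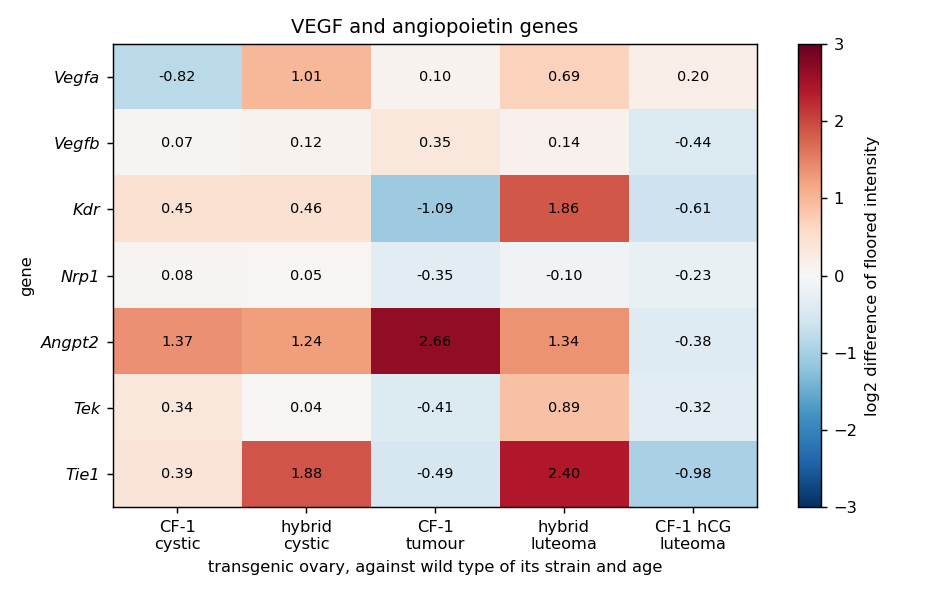
Log2 differences of floored intensity (colour and printed number) for the 7 tested VEGF and angiopoietin genes (rows) in each transgenic ovary against the wild type of its strain and age (columns), 1 array on each side. Kdr and Tie1 are most raised in the hybrid luteoma (1.86 and 2.40) and Angpt2 in the tumour (2.66), while Nrp1 stays between -0.35 and 0.08.

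Other endothelial genes followed Kdr and Tie1 only in part. Of a list of 50 endothelial markers, 31 were measured and 19 tested, 17 of them besides Kdr and Tie1. The hybrid luteoma held the highest level for 6 of these 17 (10.7% of all tested probe sets were highest there) and the tumour the lowest for 9 of 17 (19.1% of all). The 6 were Cd93, Cdh5, Eng, Icam2, Tek and Thbd. The hybrid wild type at 2 months, where Tie1 was lowest, held the highest level for 5 of the 17 (9.05% of all). These were Acvrl1, Emcn, Gata2, Sox17 and Tal1. Cd93, a cell-surface glycoprotein of endothelial cells, read 3871 units in the hybrid luteoma, 2289 in the CF-1 wild type at 5 months and 740 to 1413 elsewhere, the same top 2 ovaries as the receptors. Eng (endoglin), a co-receptor of TGF-beta family ligands, read 11920 in the hybrid luteoma and 3315 in its wild type. Cdh5 (VE-cadherin), the adhesion protein of endothelial junctions, read 1888 and 1012 in that pair.

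Other vessel genes did not share this pattern. Emcn, an endothelial sialomucin, read 176 in the hybrid luteoma, under the floor, and 352 in its wild type. A second Emcn probe set, which did not pass the filter on low values, read 336 and 389 in that pair. Selp (P-selectin), which platelets also carry, was highest in the hCG luteoma at 4197 and read 1019 in the hybrid luteoma. Procr, also on the list, was highest in the CF-1 cystic ovary at 2255.5. It exceeded the wild type of strain and age 2.2-fold and 2.0-fold in the CF-1 and hybrid cystic ovaries and 5.5-fold in the tumour. In the hybrid and hCG luteomas the folds were 5.1 and 3.0. The hybrid wild type at 5 months read 186.4, near the chip A floor of 183.8. In the hybrid luteoma pair 9 of the 17 were higher and 8 lower, with a median log2 difference of 0.26 beside -0.07 over all tested probe sets. In the hCG luteoma pair 11 were higher, 5 lower and 1 at the floor on both arrays, with a median of 0.25 beside 0.00, although Kdr and Tie1 were lower there.

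Thbd (thrombomodulin), the endothelial anticoagulant receptor, fell in the tumour. It read 206 units there, under the floor of 290.7, and 1140 to 1694 in the other 8 ovaries, without overlap. Of all tested probe sets, 19.1% were lowest in the tumour. Computed against the floor, the difference was -2.14 ± 0.28 (SE; limma adjusted p = 0.0108). It lost the call with a floor 2 times as high (-1.14, limma adjusted p = 0.0632) and with strain and age terms (limma adjusted p = 0.0709). Thbd was the only one of the 17 to pass for the tumour, and 0 of 17 passed for the cystic and luteoma classes (limma; 3 and 4 had an unadjusted p under 0.05). A second, dimmer probe set of Ets1, an ETS transcription factor, also passed for the tumour (-1.83, limma adjusted p = 0.0404), while the brighter one differed by -0.33 (limma adjusted p = 0.758). Over all tested probe sets, 1.5% passed for the tumour, 0.0624% for cystic and 0.109% for luteoma. For cystic and luteoma, 382 and 538 of all 6408 had an unadjusted limma p under 0.05. The median tumour difference of the 17 was -0.63, beside 0.00 over all tested probe sets.

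**Figure D5:**
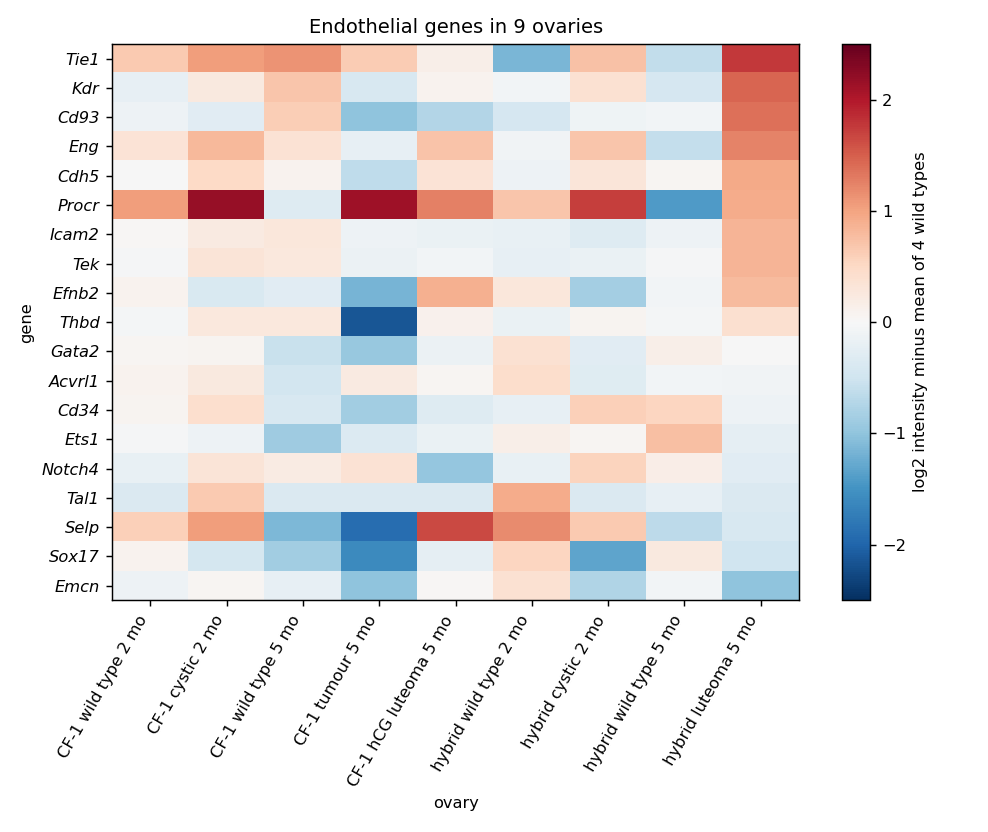
Log2 intensity of 19 tested endothelial genes (rows) in 9 ovaries (columns), each minus the mean of the 4 wild types, with rows ordered by the hybrid luteoma. Tie1, Kdr, Cd93, Eng and Cdh5 head the hybrid luteoma column, Emcn and Sox17 close it, and Thbd is lowest in the tumour.

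Genes downstream of Kdr, of the vessel wall and of the hypoxia response gave 0 calls. In lists this short that is near the share over all tested probe sets, 0.0624% for cystic, 0.109% for luteoma and 1.5% for the tumour. An unadjusted limma p under 0.05 was seen for 382, 538 and 1001 of all 6408, in that order. Of 15 tested VEGF receptor signalling genes 0 passed in any class (limma; 0 for cystic, 1 for luteoma and 2 for the tumour had an unadjusted p under 0.05). The lowest p was that of Hspb1, a small heat shock protein phosphorylated after VEGF stimulation, with 2224 units in the tumour and 3790 to 8213 elsewhere. Of 7 pericyte and smooth muscle genes 0 passed (limma; 1, 2 and 2 at an unadjusted p under 0.05, in the same order). Pdgfrb, the receptor that recruits pericytes, had the lowest p, with 139 units in the tumour, under the chip B floor, and 495 to 1289 elsewhere (limma adjusted p = 0.0740). Of 12 hypoxia response genes 0 passed (limma; 1, 1 and 3 at an unadjusted p under 0.05), and Hif1a differed by 1.38 in the tumour (limma adjusted p = 0.0820).

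Of 9 secreted inhibitors of angiogenesis, 1 was higher and 8 were lower in the tumour than in the CF-1 wild type at 5 months. Their median log2 difference was -0.54, beside 0.01 over all tested probe sets. Timp1 read 2618 units in the tumour and 17505 in that wild type. The mean log2 level of the 9 genes was highest of all ovaries in that same wild type (11.23). It was 10.77 in the tumour and 10.555 to 10.80 in the other wild types. In the fit of classes, tumour minus wild type, their median difference was -0.11, beside 0.00 over all tested probe sets. The 1 that was higher in the CF-1 pair, Thbs1 (thrombospondin 1), rose in the tumour to 5110 units from 731 to 1370 elsewhere. Its difference was 2.28 (limma adjusted p = 0.0281; 0.0107 to 0.132 over 16 alternatives, of which 10 passed).

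Blood content was read beside the receptors from 6 tested red cell genes. Alas2, the red cell enzyme of heme synthesis, passed for the cystic ovaries (2.36, limma adjusted p = 0.0468) and for the luteomas (2.25, limma adjusted p = 0.0410). It read 1560 and 2443 units in the CF-1 and hybrid cystic ovaries, 1576 and 2081 in the hCG and hybrid luteomas, 798 in the tumour and 306 to 485 in the wild types. Each call was kept in 4 of 17 alternatives. The summed level of the red cell list was 28372 to 32727 units in the wild types, 47169 and 83322 in the cystic ovaries, 60906 in the hCG luteoma, 30608 in the tumour and 25085 in the hybrid luteoma. By that sum the hybrid luteoma was lowest of the 9, but by the mean log2 level of the same genes (11.24) it lay above the 4 wild types (10.80 to 10.97). Against its own wild type 3 of the 6 genes were higher and 3 lower, with a median log2 difference of 0.10. Whether blood content took part in the receptor levels was not tested.

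Markers of other cell types moved in the same ovaries. The summed level of 8 tested macrophage genes was highest in the CF-1 wild type at 5 months (67028 units), followed by the hybrid luteoma (48293), and ran from 23697 to 40842 in the other 7. These are the same 2 ovaries, in the opposite order, that head both receptors. Lyz2 alone gave 33432.5 and 28288.7 units of these 2 sums. Of the list, 12 macrophage genes were measured. Adgre1, Fcgr1 and Marco reached the detection limit in 0 ovaries and Csf1r in 1, and they are not among the 8. Of the 8, 7 reached the detection limit in all 9 ovaries and Mrc1 in 6, and Cd74, the invariant chain of class II molecules, fell in the tumour (-3.16, limma adjusted p = 0.0108). Of 11 granulosa cell genes, Hsd17b1 rose and Amh and Wt1 fell in the tumour, and Inhbb, the activin beta B subunit, fell in the luteomas (-2.38, limma adjusted p = 0.0323). Of 7 luteal and steroidogenic genes, Star and Ptgfr, the prostaglandin F receptor, fell in the tumour. The part of these cell types in the receptor levels was not tested.

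The probe sets most like each receptor were sought among 893 tested chip B probe sets with 1 gene symbol, by Pearson's r of log2 intensity over the 9 ovaries. For Kdr these were Amy1 (r = 0.894), Fgr (0.873), Srxn1 (0.869), Pdlim4 (0.857), Cyct (0.855), Selenop (0.853), Cd48 (0.853) and Cd14 (0.832). For Tie1 they were Rbck1 (r = 0.898), H2-Eb1 (0.825), Ckm (0.815), Tff3 (0.812), Itm2c (0.803), 1110038F14Rik (0.797), Lamp1 (0.790) and Bmp6 (0.789). All points share the array and its control profile, and no gene appeared in both lists. Selenop, which encodes a selenium transport protein, read 13340 units in the hybrid luteoma, 11726 in the CF-1 wild type at 5 months and 7847 in the hybrid wild type at 5 months.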

How the data were processed

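RNA of 9 mouse ovaries was read on 18 oligonucleotide arrays of 2 chip types. The deposited values are intensities, 1 per probe set and array, on a linear scale with 13.6% to 30.1% below 0; the authors' software and scaling are not given in the sources used here. Samples were grouped by titles, sources and descriptions.

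Arrays of a chip type were brought to one trimmed mean (2nd to 98th percentile), floored (183.8 units on chip A, 290.7 on chip B) and taken to log2. Probe sets at 2 floors or more on at least 2 arrays were tested, 4122 and 2286. A set of 76 control or repeated probe sets per chip was left out. Levels printed are unfloored; folds and log2 differences are floored, which understates low genes. Fits used limma 3.58.1 in R 4.3.3 with a 0.05 threshold over both chips, and were tested on simulated data. The number of arrays limits precision.

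Genes were named from the platform annotation, updated by Entrez number through GRCm38.p6 gene models (7544 of 7561 matched). Members and lists were chosen with earlier results of these data known. Named were all members, every measured VEGF and angiopoietin gene, list genes past the threshold (in lists without one, up to 4 brightest and 4 lowest p) and the 8 likest probe sets; endothelial genes highest in the hybrid luteoma, Emcn, Selp, Ets1, Pecam1 and other undetected markers were chosen after their values were seen. Lists used the brightest probe set per gene. Alternatives changed scaling, floor, filter, prior, terms and ovaries.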

Additional observations from a re-analysis of the deposited data

Results flagged for a closer look

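Angpt2 in the tumour, 7366 units, stood far from the other 3 untreated transgenic ovaries, of which the next read 2303. By Dixon's outlier rule 1 of 14 such groups of 4 was flagged. Chance flags about 1 in 20, so 1 flag among 14 groups is not beyond chance. The 4 ovaries differ in class, strain and age and are not repeats, so the flag marks no outlier within a condition.

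The 5-month difference between transgenic and wild type pointed up in the hybrid and down in CF-1 for both receptors. The hybrid difference exceeded that of CF-1 by 2.96 in log2 for Kdr and 2.89 for Tie1, each from 1 array per side. A genotype by strain term over the 8 untreated ovaries, added after the data were seen, gave 2.19 ± 0.52 (SE) for Tie1 and 1.48 ± 0.65 for Kdr, with a limma adjusted p = 0.854 for each. Of 6408 probe sets 0 passed limma's adjusted threshold for that term, and 348 had an unadjusted p under 0.05, Tie1 among them and Kdr not. Both arrays of the CF-1 pair and the transgenic array of the hybrid pair carry the shared control profile, whose part was not tested.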

How the results depend on the processing

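No replicate block was fitted, since the labels give no replicate numbers; the genotype fit matched ovaries through its strain and age terms. Neither receptor passed the threshold in any of 164 fitted differences under alternatives, 7 of which turned sign. With the shared-profile term, chosen after seeing the data, Tie1 tumour minus wild type became -0.53, and luteoma minus cystic became -0.11 for Kdr and -0.70 for Tie1. Strain and age terms turned the latter to -0.43. Leaving out 1 ovary at a time, luteoma minus cystic ran from -0.24 to 1.13 for Kdr and from -0.75 to 0.89 for Tie1. The same ranges were 0.08 to 1.45 and 0.14 to 1.77 for luteoma minus wild type, 0.18 to 0.55 and 0.51 to 1.26 for cystic minus wild type, -0.54 to -0.17 and 0.24 to 1.001 for the tumour, and 0.03 to 0.83 and 0.61 to 1.52 for genotype. The pair differences of both receptors kept their sign under each of 4 scaling and floor alternatives. Over alternatives, probe sets past limma's threshold numbered 18 to 268 for the tumour (96 as reported; 268 without the CF-1 wild type at 5 months, 18 with strain and age terms), 0 to 41 for luteoma (7; 41 without that same ovary), 0 to 13 for cystic (4), 0 to 15 for luteoma minus cystic (0) and 0 to 8 for genotype (0). The cause of these shifts was not tested. Single arrays, 1 probe set per receptor and Tie1 signals under the detection limit in both hybrid wild types limit what the data can show.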
